A study of Rattus norvegicus with 24 samples.

Results

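The genes described here are 50 genes that mark endothelial cells, the cells that line blood vessels and the heart chambers, taken by name from the rat myocardium (heart muscle tissue) of an experiment on mitral regurgitation. Of the 50, 46 are listed in each of the deposited tables, which hold 10797 genes in any table and 10129 in all of them. Mmrn2, Ecscr, Ptprb and Bmx are not listed. Robo4 is listed but averaged under 1 normalised count in each table, so 45 genes were tested at every time.

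Mitral regurgitation (MR) was made in Sprague-Dawley rats through a left thoracotomy by piercing a leaflet of the mitral valve, and Sham rats had surgery in which the leaflet was left intact. The groups were MR at 2 weeks after surgery (n = 4), MR at 10, 20 and 40 weeks (n = 5 each) and Sham at 2 weeks (n = 5), in all 24 libraries. Sham was sampled at 2 weeks only, so at 10, 20 and 40 weeks MR cannot be told apart from time after surgery, age or handling. The labels give no heart chamber, sex, age at surgery or batch, and do not say that each library is a separate animal, so a p-value measures the spread between these libraries.

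Endothelial cells are held together by adherens and tight junctions, of which VE-cadherin (Cdh5) and claudin 5 (Cldn5) are defining proteins, and they sense flow and growth factors through receptors such as Tie1, Tek and the Notch family. They release nitric oxide, control clotting, and in heart capillaries carry lipase and fatty acids from the blood towards the muscle cells. ETS and SOXF transcription factors (Erg, Ets1, Ets2; Sox7, Sox17, Sox18) maintain the identity of the cells.

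The libraries held 7.69 to 12.1 M reads on listed genes. Values are the authors' normalised counts, and fold changes are differences of log2(value + 1). The defining endothelial genes were present in every library: on a scale joined across the tables, the lowest library had 16.7 for Cdh5, 70.4 for Pecam1, 54.9 for Tie1 and 90.6 for Vwf. The tissue is bulk, so fewer endothelial cells and less of an RNA per cell cannot be told apart. Levels are not given per length and are not compared between genes.

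At 40 weeks, 25 of the 45 endothelial genes differed between MR and Sham, and they did not move as a block: 21 fell and 4 rose. The 4 largest falls were those of Gpihbp1, Egfl7, Fabp4 and Ramp2, followed by Emcn and Plvap. The 4 that rose were the junction gene Cdh5, the sialomucin Cd34 and the receptors Calcrl and Adgrf5. Adjusted p-values are Benjamini-Hochberg values of limma over all genes tested, and a gene passed under 0.05. The share of the 45 genes called was 55.6%, against 47.3% of all 10094 genes. Of the 45, 46.7% fell and 8.89% rose, against 30.9% lower and 16.3% higher over all genes. The median log2 difference was -0.41 for the endothelial genes and -0.15 for all genes. In 14 of the 45 genes (31.1%) the MR and Sham libraries did not overlap on the deposited scale, against 29.2% of all genes. The shares called and not overlapping were thus near the background, while the share that fell was above it and the share that rose below it.

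The typical gene itself was lower at 40 weeks on the deposited scale, and part of the split depended on this. After each library was rescaled by the median of its gene ratios, the median of all genes was -0.01 and that of the endothelial genes was -0.26. On that scale 14 endothelial genes fell and 5 rose (31.1% and 11.1%), against 21.8% of all genes lower and 23.7% higher. Of the falls 14, and all 4 rises, were called on both scales. Adgrl4, Cldn5, Ets2, Notch4, Pecam1, Sox17 and Sox7 fell on the deposited scale only, and Cd93 rose after rescaling only. Overlap between MR at 40 weeks and Sham is described on the deposited scale, and it too depended on the scale. Esam, Tie1, Adgrl4, Heyl and Podxl did not overlap on the deposited scale but did on the joined scale. Cdh5 overlapped on the deposited scale but not on the joined scale (79.6 to 115 in MR, 37.5 to 73.6 in Sham). Under every alternative run that tested them, 16 of the 25 genes passed: Adgrf5, Calcrl, Cd34, Cdh5, Egfl7, Emcn, Esam, Fabp4, Gpihbp1, Icam2, Nos3, Ramp2, Rasip1, Sox18, Tie1 and Tm4sf1. Calcrl was too low to be tested in the run that asked for a mean of at least 10.

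**Figure D1:**
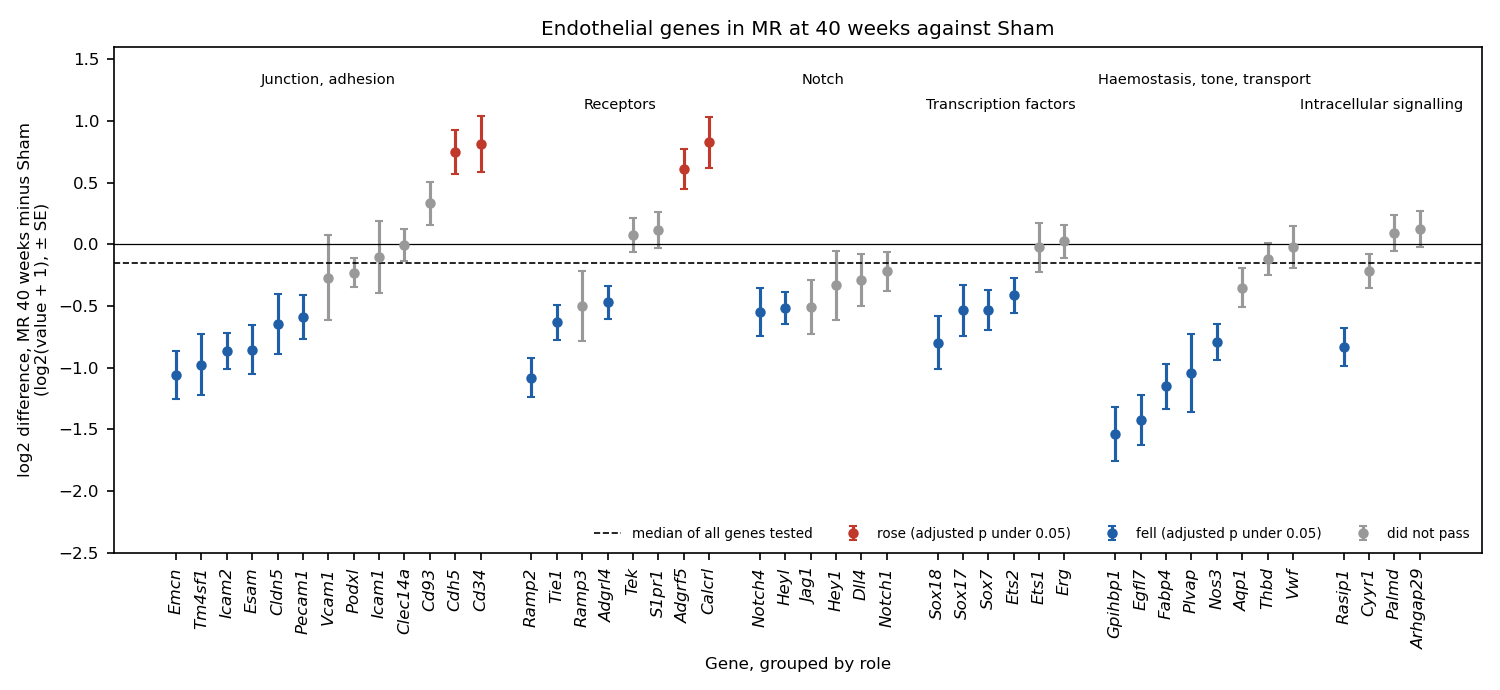
Log2 difference of MR at 40 weeks minus Sham on the log2(value + 1) scale for the 45 tested endothelial genes, grouped by role. Points are limma estimates, bars are ± SE, and the dashed line is the median of all genes (-0.15). The 4 rises lie in the junction and receptor groups, and the 3 largest falls are in the group of haemostasis, tone and transport.

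The counts by role stand beside 30.9% of all genes lower and 16.3% higher. Among genes of haemostasis, vascular tone, transport and secretion, 5 of 8 fell and none rose, with a median log2 difference of -0.92. Gpihbp1 anchors lipoprotein lipase on the capillary surface. It had 14.6, 12.1, 12.8, 16 and 15.7 normalised counts in the MR libraries at 40 weeks, against 69.1, 59.1, 31.2, 27.3 and 41.5 in the Sham libraries (log2 difference -1.54 ± 0.22 SE, limma adjusted p = 0.00025). The MR libraries were all below the lowest Sham library, and the Sham libraries were more spread. Egfl7, an endothelial matrix protein that takes part in vessel formation, had 31.2, 26.1, 46.1, 25.4 and 21.1 normalised counts in MR, against 71.9, 99.2, 102, 68.1 and 62.9 in Sham (-1.42 ± 0.20 SE, limma adjusted p = 0.000236). The groups did not overlap. Fabp4, a fatty acid binding protein of capillaries that fat cells also make, had 173, 143, 224, 122 and 138 normalised counts in MR, against 342, 472, 347, 320 and 287 in Sham (-1.15 ± 0.18 SE, limma adjusted p = 0.000382). Again every MR library was below every Sham library. Of 9 adipocyte markers, 3 are listed, Fabp4 among them, and Adipoq, Plin1, Lep, Retn, Cidec and Pck1 are not listed.

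Nos3, the endothelial nitric oxide synthase, had 73.0, 63.9, 76.9, 53.7 and 58.5 normalised counts in MR at 40 weeks, against 109, 143, 118, 99.4 and 99.9 in Sham. Its log2 difference was -0.79 ± 0.14 SE (limma adjusted p = 0.000746), and the groups did not overlap. Plvap, which forms the diaphragms of fenestrae and caveolae, was near the lower limit, at 0.837 to 3.12 normalised counts in MR and 1.47 to 6.33 in Sham. It fell by 1.05 on the log2 scale (SE 0.32, limma adjusted p = 0.0147) with overlapping groups, and lost its call when all 24 libraries were put in a single fit. The clotting genes did not pass. The log2 difference was -0.02 ± 0.17 SE for Vwf, the von Willebrand factor, and -0.12 ± 0.13 SE for Thbd, thrombomodulin. The water channel Aqp1 was at -0.35 ± 0.16 SE with an adjusted p of 0.0777 in limma.

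Of the 13 tested genes of junctions, adhesion and the glycocalyx, 6 fell and 2 rose. Cdh5, which encodes VE-cadherin, had 86.8, 75.5, 72.0, 69.4 and 91.6 normalised counts in MR at 40 weeks, against 38.7, 42.2, 35.1, 52.5 and 71.6 in Sham (0.75 ± 0.18 SE, limma adjusted p = 0.00383). Of the MR libraries 4 of 5 were above every Sham library. Cd34, a sialomucin of capillary and progenitor cells, had 37.2, 34.1, 29.5, 22.2 and 35.6 normalised counts in MR, against 12.4, 14.5, 12.6, 23.1 and 29.5 in Sham (0.81 ± 0.23 SE, limma adjusted p = 0.00949). Sham replicates 4 and 5 reached into the MR range for Cd34, and Sham replicate 5 for Cdh5.

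Endomucin, another sialomucin of the glycocalyx, moved the other way. Its gene Emcn had 20.8, 14.2, 24, 12.9 and 16.2 normalised counts in MR at 40 weeks, against 38.2, 50.8, 41.6, 32.2 and 26.3 in Sham (-1.06 ± 0.19 SE, limma adjusted p = 0.000799), with no overlap. Icam2, an adhesion molecule for leukocytes that is present without inflammation, had 19.9, 13.9, 19.6, 13.2 and 14.5 normalised counts in MR, against 28.8, 34.8, 28.4, 34.2 and 24.8 in Sham (-0.86 ± 0.15 SE, limma adjusted p = 0.000561). The junction molecule Esam averaged 56.8 ± 12.4 normalised counts in MR and 105 ± 31.3 in Sham (SD, n = 5 each; -0.85 ± 0.20 SE, limma adjusted p = 0.00359). Neither gene overlapped between the groups on the deposited scale, but Esam did on the joined scale. Tm4sf1, a tetraspanin-like surface protein, averaged 20.2 ± 6.52 normalised counts in MR and 41.4 ± 14.1 in Sham (SD, n = 5 each; -0.97 ± 0.25 SE, limma adjusted p = 0.00618), with overlap.

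The calls were weaker for the other genes of this group. Pecam1 (CD31), the platelet and endothelial adhesion molecule, averaged 88.8 ± 19.6 normalised counts in MR at 40 weeks and 133 ± 26.0 in Sham (SD, n = 5 each; -0.59 ± 0.18 SE, limma adjusted p = 0.0139). It did not pass after median-ratio or TMM rescaling or in edgeR. Cldn5, the tight junction protein, was at -0.65 ± 0.24 SE (limma adjusted p = 0.0411). Leaving out MR replicate 4 or 5, or Sham replicate 1, 2 or 3, took Cldn5 to adjusted p-values of 0.0669 to 0.115 and log2 differences of -0.63 to -0.48. The inducible adhesion molecules did not pass, at -0.10 ± 0.29 SE for Icam1 and -0.27 ± 0.34 SE for Vcam1. Clec14a, a partner of the matrix protein Mmrn2, was at -0.0049 ± 0.13 SE. Podxl, a glycocalyx sialomucin, did not overlap between the groups on the deposited scale (95.9 to 121 normalised counts in MR, 122 to 139 in Sham). It had an adjusted p of 0.118 in limma, and its groups overlapped on the joined scale.

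Of 8 receptors and receptor partners, 3 fell and 2 rose, and a receptor and its partner moved in opposite directions. Calcrl, the calcitonin receptor-like receptor, binds adrenomedullin when it is paired with Ramp2. Calcrl had 5.37, 6.12, 5.38, 6.38 and 9.85 normalised counts in MR at 40 weeks, against 2.54, 2.4, 3.11, 2.77 and 6.04 in Sham (0.83 ± 0.21 SE, limma adjusted p = 0.00547). Only Sham replicate 5 reached the MR range, and Calcrl was a low gene, with 46 to 237 reads per library. Ramp2 had 17.5, 11.6, 19, 12.9 and 15.2 normalised counts in MR, against 30.3, 42.9, 32.3, 35.0 and 25.9 in Sham (-1.08 ± 0.16 SE, limma adjusted p = 0.000275), with every MR library below every Sham library. Ramp3, the other partner in the family listed here, was near the lower limit at 0.249 to 2.54 normalised counts in MR and 0.934 to 3.37 in Sham, and did not pass (-0.50 ± 0.28 SE).

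The adhesion G protein-coupled receptors also differed in sign. Adgrf5 had 146, 142, 157, 130 and 184 normalised counts in MR at 40 weeks, against 112, 109, 70.9, 87.5 and 121 in Sham (0.61 ± 0.16 SE, limma adjusted p = 0.00686), and its groups did not overlap. Adgrl4 had 20.9, 24.2, 24.4, 19 and 24.2 normalised counts in MR, against 39.4, 31.0, 31.6, 31.5 and 25.4 in Sham (-0.47 ± 0.13 SE, limma adjusted p = 0.0102). Its groups did not overlap either on the deposited scale, but they did on the joined scale. Adgrl4 lost its call after median-ratio or TMM rescaling and in edgeR. Of the angiopoietin receptor pair, Tie1 fell (-0.63 ± 0.14 SE, limma adjusted p = 0.00242), with 57.0 to 76.4 normalised counts in MR and 82.4 to 127 in Sham. Its partner Tek (TIE2) was at 0.07 ± 0.14 SE and did not pass. The sphingosine 1-phosphate receptor S1pr1 was at 0.11 ± 0.15 SE.

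All 6 Notch pathway genes had log2 differences below 0 at 40 weeks, where the median of all genes was itself -0.15. Of the 6, 2 fell with a call, beside 30.9% of all genes lower. After median-ratio rescaling the 6 ran between -0.39 for Notch4 and -0.06 for Notch1, and only Heyl passed. Heyl, a target gene of Notch that vascular smooth muscle also expresses, had 50.3, 49.6, 44.0, 46.1 and 60.7 normalised counts in MR, against 73.5, 84.3, 61.7, 75.6 and 65.1 in Sham (-0.51 ± 0.13 SE, limma adjusted p = 0.00546). The groups did not overlap on the deposited scale but did on the joined scale, and Heyl lost its call in edgeR and in the single fit of 24 libraries. Notch4, the Notch receptor most restricted to endothelium, averaged 75.6 ± 20.5 normalised counts in MR and 110 ± 24.1 in Sham (SD, n = 5 each; -0.55 ± 0.19 SE, limma adjusted p = 0.03). Leaving out MR replicate 4 or 5, or Sham replicate 1 or 2, gave Notch4 adjusted p-values of 0.0733 to 0.0843 and log2 differences of -0.49 to -0.44. The ligands Jag1 and Dll4, the receptor Notch1 and the target Hey1 did not pass, at -0.51, -0.29, -0.22 and -0.33 on the log2 scale.

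Of the 6 transcription factors 4 fell and none rose, and Sox18 was the 1 that also passed after median-ratio rescaling. Sox18 had 21.3, 12, 12.8, 16 and 15.7 normalised counts in MR at 40 weeks, against 44.3, 23.2, 30.5, 27.7 and 17.1 in Sham (-0.80 ± 0.22 SE, limma adjusted p = 0.00825). Sham replicate 5 lay within the MR range. Sox7 and Sox17, the other SOXF genes, also fell, by 0.53 (SE 0.16, limma adjusted p = 0.0156) and by 0.54 (SE 0.21, limma adjusted p = 0.0478) on the log2 scale, but neither passed after rescaling. Without MR replicate 2, 4 or 5, or Sham replicate 1, 2 or 3, Sox17 had adjusted p-values of 0.0683 to 0.125 and log2 differences of -0.53 to -0.43. The ETS genes Erg and Ets1 did not pass, at 0.02 ± 0.13 SE and -0.02 ± 0.20 SE. Ets2, an ETS gene which many cell types express, fell on the deposited scale, at -0.41 ± 0.14 SE (limma adjusted p = 0.0275). Without MR replicate 1, 2, 4 or 5, or Sham replicate 3 or 4, its adjusted p-values were 0.0507 to 0.0728 and its log2 differences -0.42 to -0.34.

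Of the 4 other endothelial genes, Rasip1 fell. This Ras-interacting protein is needed for the vessel lumen to form. It had 49.9, 46.9, 47.6, 31.2 and 41.1 normalised counts in MR at 40 weeks, against 68.0, 101, 81.5, 72.1 and 66.6 in Sham (-0.83 ± 0.16 SE, limma adjusted p = 0.000965), with no overlap. Arhgap29, whose protein acts with that of Rasip1, was at 0.12 ± 0.14 SE, and Palmd and Cyyr1 were at 0.09 ± 0.15 SE and -0.22 ± 0.14 SE. None of these passed.

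The promoters of members that moved apart at 40 weeks are shown so that the genes that fell (Egfl7, Emcn and Nos3) can be read beside genes that rose (Adgrf5 and Calcrl). Each line gives the 250 bases before the start of the gene, 5′ to 3′ on the gene's strand, from RefSeq on build GRCr8. Capitals mark matches, on either strand, to an ETS-type motif (ACAGGAA), a SOX-type motif (AACAAT) or a GATA-type motif (GATAA).
Egfl7: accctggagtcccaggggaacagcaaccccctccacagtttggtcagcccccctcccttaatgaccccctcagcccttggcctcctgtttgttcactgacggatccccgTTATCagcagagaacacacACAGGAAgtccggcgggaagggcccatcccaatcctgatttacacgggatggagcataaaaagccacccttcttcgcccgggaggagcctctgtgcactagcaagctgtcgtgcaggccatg
Emcn: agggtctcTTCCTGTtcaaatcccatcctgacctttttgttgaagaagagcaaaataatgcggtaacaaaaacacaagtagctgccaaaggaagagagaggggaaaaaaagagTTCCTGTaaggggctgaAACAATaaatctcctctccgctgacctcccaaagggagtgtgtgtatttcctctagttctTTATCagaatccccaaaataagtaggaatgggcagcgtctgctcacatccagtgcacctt
Nos3: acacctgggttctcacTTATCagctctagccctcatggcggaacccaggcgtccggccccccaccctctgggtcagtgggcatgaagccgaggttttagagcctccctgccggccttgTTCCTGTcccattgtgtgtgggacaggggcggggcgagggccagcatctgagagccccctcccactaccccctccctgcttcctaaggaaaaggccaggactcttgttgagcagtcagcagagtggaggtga
Adgrf5: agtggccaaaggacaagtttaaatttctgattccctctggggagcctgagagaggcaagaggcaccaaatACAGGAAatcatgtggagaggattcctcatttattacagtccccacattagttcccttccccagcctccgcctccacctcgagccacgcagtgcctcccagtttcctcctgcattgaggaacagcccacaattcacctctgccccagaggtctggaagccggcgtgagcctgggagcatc
Calcrl: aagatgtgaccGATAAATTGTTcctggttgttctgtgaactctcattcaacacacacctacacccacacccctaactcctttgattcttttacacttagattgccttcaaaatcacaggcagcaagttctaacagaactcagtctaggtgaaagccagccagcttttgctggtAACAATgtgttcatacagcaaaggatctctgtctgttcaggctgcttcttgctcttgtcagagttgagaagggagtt
They lie at chr3:29805381-29805630 (Egfl7, plus strand), chr2:228564289-228564538 (Emcn, plus strand), chr4:11706582-11706831 (Nos3, minus strand), chr9:25121238-25121487 (Adgrf5, minus strand) and chr3:89932617-89932866 (Calcrl, minus strand). Emcn held 2 ETS-type matches, Egfl7, Nos3 and Adgrf5 held 1 each, and Calcrl held 0. Calcrl held 2 SOX-type matches and Emcn held 1. No matches overlapped each other in these windows. RefSeq promoters were matched by symbol for 31 of the 50 genes. The ETS-type letters were found in 8 of the 31 (25.8%) and in 7.03% of all 27457 promoters in the table. Those 8 were Emcn, Clec14a, Mmrn2, Adgrf5, Nos3, Egfl7, Bmx and Palmd. Every gene among the 8 that fell at 40 weeks is thus printed here. Tie1, Tm4sf1 and Plvap also fell, and their promoters lacked these letters. The SOX-type letters were found in 6 of 31 (19.4%) and in 10.3% of all promoters, and the GATA-type letters in 10 of 31 (32.3%) and in 23.2%. For ETS-type letters 3 spellings were searched, and the spelling in capitals is the one furthest from its share of all promoters. AGGAAG was found in 11 of 31 (35.5%) and in 29.4% of all promoters, and CAGGAAG in 5 of 31 (16.1%) and in 10.2%. The spelling was chosen after these counts and the sequences had been seen, so the size of the contrast rests on that choice, and a match is a run of letters, not a binding site.

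The tables give the location of each gene on rn6, without saying if the first base of a chromosome is 0 or 1. Of the genes with the largest falls, Gpihbp1 is listed at chr7:116632496-116635544, Egfl7 at chr3:4034945-4044280, Fabp4 at chr2:93792666-93797268 and Ramp2 at chr10:89167183-89168963. Of the genes that rose, Cdh5 is listed at chr19:1025122-1074334, Cd34 at chr13:113692131-113711260, Calcrl at chr3:71750500-71845233 and Adgrf5 at chr9:20094536-20195567.

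By genomic span, a measure taken up after the data were seen, the genes that fell at 40 weeks were shorter at the median than those that rose, and the same ordering held over all genes. The median genomic span was 10.9 kb for the 21 endothelial genes that fell, 27.6 kb for the 20 that did not pass and 72.0 kb for the 4 that rose. Over all 10094 genes, divided into 5 equal groups from the shortest to the longest span, the median log2 difference was -0.41, -0.25, -0.14, -0.02 and 0.10. The endothelial genes in the same groups had medians of -0.54, -0.84, -0.51, -0.12 and 0.0015. Per library, the level of the longest group less that of the shortest (log2, relative to the mean over libraries) was 0.12 to 0.62 in MR at 40 weeks and -0.32 to 0.03 in the 19 other libraries. Genomic span was 1 of 2 gene properties looked at after the data were seen. For the other, promoter GC content, no value is given and nothing is concluded. Of the 10094 genes, 7947 (78.7%) had a RefSeq promoter. The part of this ordering in the endothelial differences was not tested. The endothelial genes of the shortest group ran between -1.54 for Gpihbp1 and 0.33 for Cd93, and those of the longest group between -1.06 for Emcn and 0.83 for Calcrl.

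**Figure D2:**
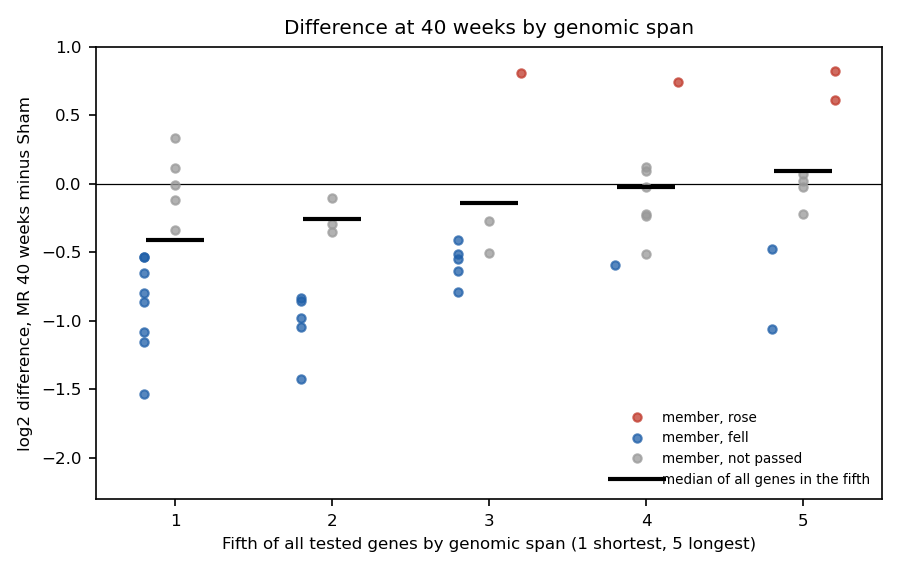
Log2 difference of MR at 40 weeks minus Sham for the 45 endothelial genes (points, coloured by call), placed by genomic span on rn6 in the 5 equal groups of all tested genes. Black bars are the medians of all genes in each group, which run between -0.41 in the shortest and 0.10 in the longest.

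Other genes named for endothelium also moved in both directions. Of 41 tested at 40 weeks, 16 fell and 6 rose, beside 30.9% of all genes lower and 16.3% higher. Their median log2 difference was -0.15, that of all genes was -0.15 and that of the 45 endothelial genes was -0.41. Kank3, an ankyrin repeat protein, averaged 48.8 ± 6.49 normalised counts in MR and 98.3 ± 18.9 in Sham (SD, n = 5 each; -0.99 ± 0.14 SE, limma adjusted p = 0.000266). Ece1, the endothelin converting enzyme, averaged 53.5 ± 4.52 normalised counts in MR and 31.4 ± 3.96 in Sham (SD, n = 5 each; 0.76 ± 0.12 SE, limma adjusted p = 0.000387). Nostrin, which binds the nitric oxide synthase, fell by 0.91 on the log2 scale (SE 0.18), and Rapgef3, a cAMP-gated exchange factor for Rap, fell by 0.85 (SE 0.17).

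By vessel type, the capillary markers had 6 falls and 1 rise among 10, with a median of -0.66. Gpihbp1 and Fabp4 are among those 6, and Tcf15, a capillary transcription factor, fell by 0.99 on the log2 scale (SE 0.15, limma adjusted p = 0.000348). The rise was Lpl, lipoprotein lipase, the enzyme that Gpihbp1 anchors, which heart muscle cells make. Lpl averaged 1142 ± 212 normalised counts in MR at 40 weeks and 445 ± 168 in Sham (SD, n = 5 each; 1.43 ± 0.26 SE, limma adjusted p = 0.000709). The summed level of the 10 capillary markers, Lpl among them, leaned the other way from the falls. On the joined scale it was 2392 to 3182 in MR at 40 weeks and 1840 to 2445 in Sham. Arterial markers had 3 falls and 1 rise among 10, venous markers 1 fall among 5, endocardial markers 1 fall and 2 rises among 5, and lymphatic markers 1 rise among 6. Over all genes 30.9% were lower and 16.3% higher, with a median of -0.15. The vessel-type lists hold 5 to 10 tested genes each and share genes with the 50.

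Markers of other cells in the tissue moved beside these results at 40 weeks, when 30.9% of all genes were lower and 16.3% higher. The calls are on the deposited scale, where the median of all genes was -0.15. The sums are on the joined scale, so a count of falls and a sum can differ in direction. Macrophage markers had 6 falls among 12, with summed levels on a scale joined across tables of 215 to 339 in MR and 333 to 511 in Sham. Fibroblast markers had 6 falls and 1 rise among 12 (sums 2064 to 2651 in MR, 2259 to 3959 in Sham), and pericyte markers 6 falls and 3 rises among 10 (320 to 419 in MR, 286 to 374 in Sham). Cardiomyocyte markers had 5 falls and 2 rises among 11 (45720 to 66750 in MR, 55350 to 69050 in Sham), and smooth muscle markers 1 fall and 1 rise among 8 (282 to 450 in MR, 232 to 546 in Sham). Lymphocyte and pan-leukocyte markers had 1 fall among 5 (15.3 to 21.9 in MR, 14.8 to 27.3 in Sham), with Cd3e, Cd3d, Cd3g, Ms4a1, Cd79a and Cd79b not listed. Of the adipocyte markers, 2 of 3 fell (206 to 334 in MR, 367 to 612 in Sham). Fabp4, which is also an endothelial gene here, is among the 2 and enters the sum with 140 to 248 in MR and 296 to 496 in Sham. Of the platelet markers 2 of 6 are listed and neither passed (2.94 to 48.3 in MR, 4.55 to 11.6 in Sham). The part of these cells in the endothelial results was not tested.

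At 2 weeks no endothelial gene passed between MR and Sham, and the groups lay close together. In limma 0 of 45 genes were called, against 0.0% of 10173 genes, and 0 were called by edgeR and by DESeq2. None had an unadjusted p under 0.05 (0 of 45, against 5.47% of all genes), and in 0 of 45 were the groups without overlap, against 2.16% of all genes. The median log2 difference was 0.01 for the endothelial genes and -0.07 for all genes. Dll4, a Notch ligand of arterial and sprouting cells, had 59.3, 32.9, 43.0 and 36.9 normalised counts in MR, against 31.5, 41.6, 35.6, 25.1 and 28.4 in Sham. Gpihbp1 had 41.6, 25.6, 35.5 and 24.6 in MR, against 73.8, 62.3, 32.2, 28.4 and 43.7 in Sham. The groups overlapped for both, with log2 differences of 0.38 ± 0.20 SE for Dll4 and -0.52 ± 0.28 SE for Gpihbp1. Erg was at 0.34 ± 0.17 SE and Sox17 at -0.25 ± 0.22 SE.

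One library stood apart within the MR group at 2 weeks. On the joined scale, MR replicate 1 had 149 for Egfl7, 244 for Notch4 and 21.2 for Cdh5. The other MR libraries at 2 weeks had 53.5 to 62.0 for Egfl7, 96.8 to 117 for Notch4 and 49.1 to 78.8 for Cdh5. The replicate was high in 2 genes that fell at 40 weeks and low in a gene that rose.

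At 10 weeks, too, no endothelial gene passed in limma (0 of 45, against 0.168% of 10096 genes). edgeR called 0 and DESeq2 called 1, Cd93. An unadjusted p under 0.05 was found in 11 genes (24.4%), against 12% of all genes. The median log2 difference was 0.09 for the endothelial genes and 0.06 for all genes. Notch4 had 212, 182, 159, 170 and 147 normalised counts in MR at 10 weeks, against 144, 132, 103, 85.7 and 96.2 in Sham. It was the 1 gene of the 45 whose groups did not overlap (2.22%, against 2.45% of all genes), at 0.64 ± 0.16 SE with a limma adjusted p of 0.138. Cd93, a C-type lectin-like receptor of endothelium and monocytes, had 11, 18.1, 16.4, 25.1 and 30.1 normalised counts in MR, against 28.8, 31.0, 35.5, 42.3 and 48.6 in Sham. MR replicate 5 reached into the Sham range, and the log2 difference was -0.91 ± 0.22 SE (limma adjusted p = 0.146). Fabp4 and Cdh5 were at 0.56 ± 0.17 SE and -0.58 ± 0.22 SE, each with the sign opposite to that at 40 weeks, and neither passed.

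At 20 weeks the endothelial genes leaned low without a call. In limma 0 of 45 passed, against 0.0698% of 10025 genes, and edgeR and DESeq2 each called 0. Of the 45 log2 differences, 40 were below 0, with a median of -0.27, against -0.0027 for all genes. Other cell markers were also mostly below 0: 9 of 12 for macrophages (median -0.24), 9 of 12 for fibroblasts (-0.23), 8 of 10 for pericytes (-0.17) and 5 of 5 for lymphocytes (-0.25). Smooth muscle (4 of 8 below 0, median 0.13), cardiomyocyte (4 of 11, 0.20) and adipocyte markers (0 of 3, 0.21) were not. The part of these cells in the endothelial lean was not tested. An unadjusted p under 0.05 was found in 11 genes (24.4%), against 9.49% of all genes. Cd93 had 20.0, 16.1, 26.2, 26.9 and 27.5 normalised counts in MR at 20 weeks, against 27.8, 30.2, 34.8, 41.4 and 46.8 in Sham. It was the 1 gene whose groups did not overlap (2.22%, against 1.80% of all genes), at -0.61 ± 0.18 SE with a limma adjusted p of 0.273. Arhgap29 had 10.9, 10.1, 15.2, 13.4 and 19.4 normalised counts in MR, against 16.3, 21.2, 20.0, 26.0 and 22.5 in Sham, with overlap (-0.60 ± 0.17 SE, limma adjusted p = 0.271). The highest values were 0.12 ± 0.18 SE for Adgrf5 and 0.09 ± 0.19 SE for Notch4. All 4 comparisons used the same 5 Sham libraries, so their differences are not independent of each other.

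**Figure D3:**
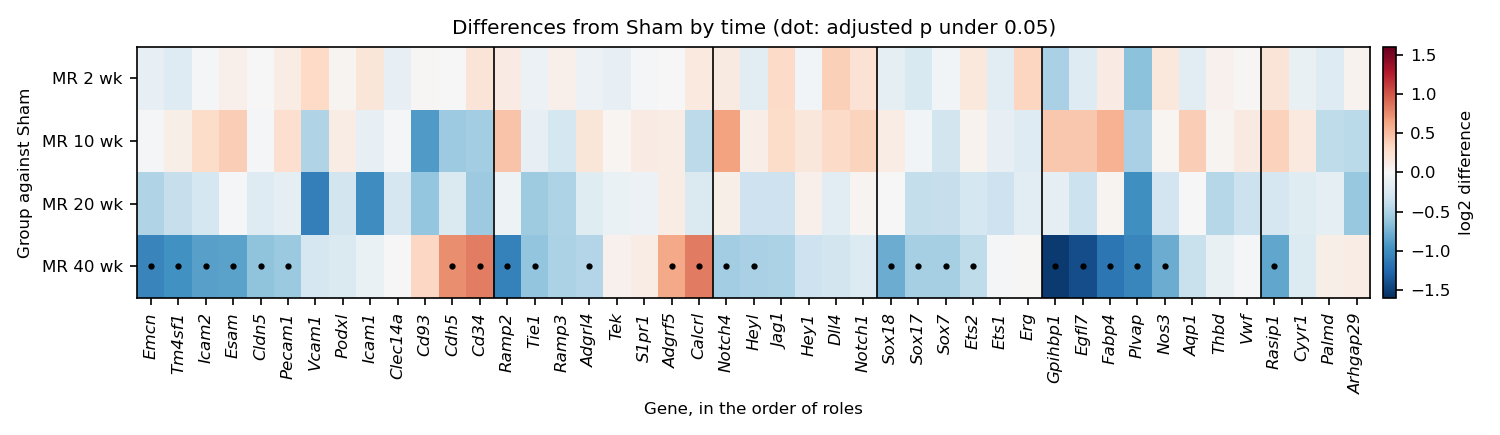
Log2 differences from Sham of the 45 endothelial genes (columns, in the order of roles, with lines between roles) at 2, 10, 20 and 40 weeks of MR (rows). A dot marks a limma adjusted p under 0.05, and all 25 dots are in the row of 40 weeks.

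The MR groups were also compared with each other, on the joined scale, in a fit of all 24 libraries. Sham carries no weight in the difference between MR times, though it takes part in the estimate of spread. At 40 against 20 weeks, 12 endothelial genes rose and 7 fell (26.7% and 15.6%), against 21.2% of all 10004 genes higher and 17.5% lower. In 9 genes (20.0%) the groups did not overlap, against 22.9% of all genes. The median log2 difference was 0.04 for the endothelial genes and 0.01 for all genes.

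The 7 genes that fell between 20 and 40 weeks had also fallen against Sham. Gpihbp1 had 16.3, 14.1, 14.2, 18.3 and 19.8 at 40 weeks on the joined scale, against 55.4, 37.0, 33.2, 41.9 and 34.7 at 20 weeks (-1.23 ± 0.21 SE, limma adjusted p = 8.3e-05). The groups were fully apart, as they were for Fabp4 (-1.02 ± 0.19 SE, limma adjusted p = 0.000193) and Ramp2 (-0.84 ± 0.16 SE, limma adjusted p = 0.000242). Egfl7 (-0.92 ± 0.26 SE), Sox18 (-0.63 ± 0.19 SE), Esam (-0.66 ± 0.21 SE) and Icam2 (-0.42 ± 0.16 SE) fell with some overlap. Esam lost its call without MR 20 weeks replicate 1 or MR 40 weeks replicate 4 (-0.56 to -0.50). Icam2 lost it without MR 20 weeks replicate 1 or 3 or MR 40 weeks replicate 2, 4 or 5 (-0.41 to -0.33).

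The 12 genes that rose between 20 and 40 weeks were led by Cd34. Of the 12, Cd34, Cdh5, Calcrl and Adgrf5 had also risen at 40 weeks against Sham. The others had not passed against Sham on the deposited scale. Cd34 had 41.6, 39.9, 32.6, 25.4 and 44.8 at 40 weeks on the joined scale, against 8.23, 7.4, 11.3, 13.1 and 22.4 at 20 weeks (1.56 ± 0.32 SE, limma adjusted p = 0.000506). Cdh5 had 97.3, 88.3, 79.6, 79.6 and 115 at 40 weeks, against 33.3, 23.2, 44.0, 52.8 and 60.5 at 20 weeks (1.15 ± 0.30 SE, limma adjusted p = 0.00377). Neither gene overlapped between the groups, and the same was true of Calcrl (1.21 ± 0.29 SE), Cd93 (1.12 ± 0.29 SE), Arhgap29 (0.89 ± 0.21 SE) and Adgrf5 (0.66 ± 0.17 SE). Icam1 (1.04 ± 0.34 SE), Thbd (0.51 ± 0.16 SE), Vwf (0.49 ± 0.18 SE), Palmd (0.40 ± 0.15 SE), S1pr1 (0.38 ± 0.14 SE) and Tek (0.35 ± 0.14 SE) rose with overlap. For each of these last 6, leaving out a library ended the call. Icam1 lost it without MR 20 weeks replicate 2 or 4 or MR 40 weeks replicate 2 (0.83 to 0.92), and Thbd without MR 20 weeks replicate 2 (0.39). Vwf lost it without MR 20 weeks replicate 2 or 4 or MR 40 weeks replicate 1, 2 or 3 (0.33 to 0.47). S1pr1 lost it without MR 20 weeks replicate 1 or 2 or MR 40 weeks replicate 1, 2, 3 or 5 (0.30 to 0.39). Palmd and Tek lost it without any of MR 20 weeks replicates 1, 2, 3 and 4 and of MR 40 weeks replicates 1, 2 and 5, and Tek also without MR 40 weeks replicate 3 (0.35 to 0.41 for Palmd, 0.24 to 0.37 for Tek).

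**Figure D4:**
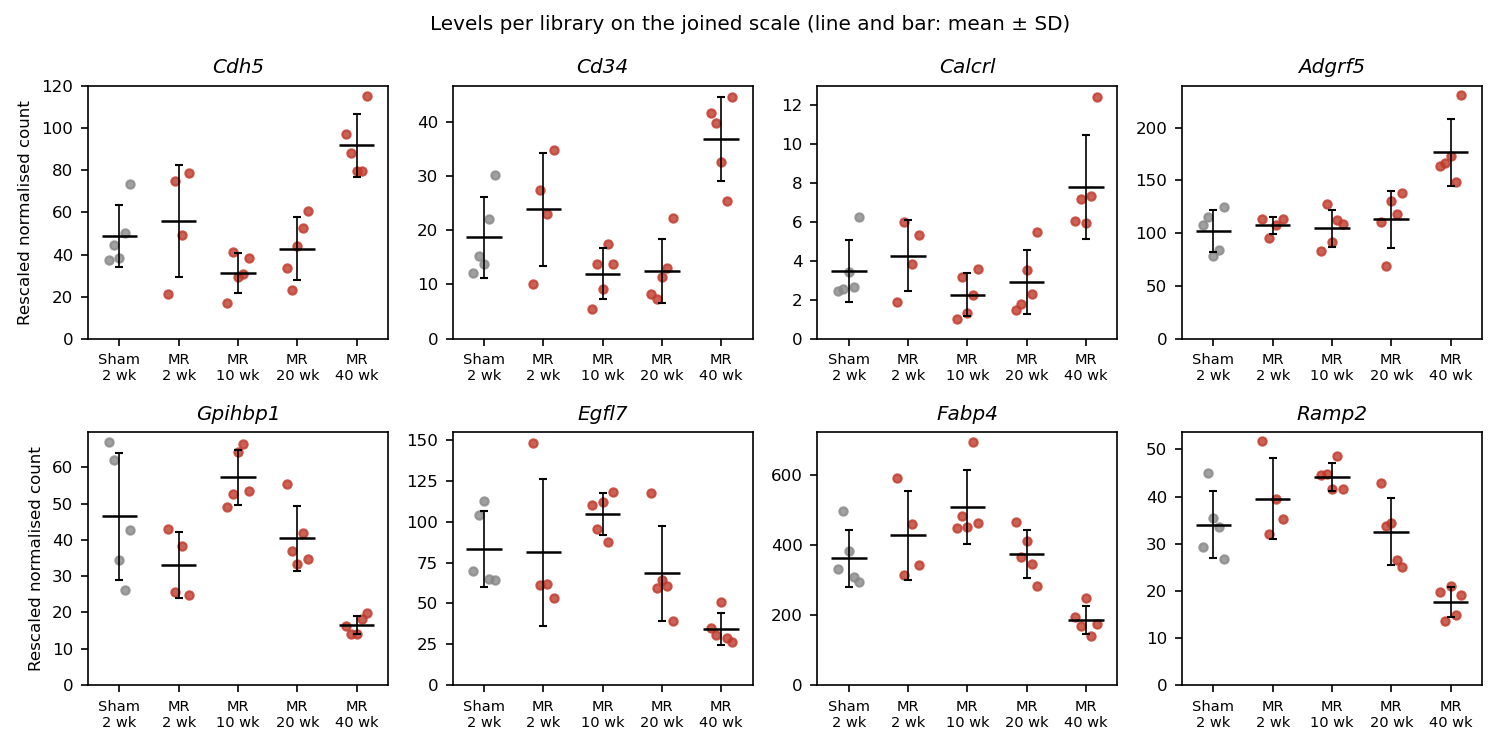
Levels of 8 endothelial genes in the 24 libraries on the joined scale (normalised counts rescaled by the median of ratios), by group. Points are libraries and black marks are the mean ± SD. The upper row holds the genes that rose at 40 weeks and the lower row those with the largest falls, and in both rows the groups before 40 weeks overlap each other in most panels.

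At 40 against 2 weeks of MR, 17 endothelial genes fell and 4 rose (37.8% and 8.89%), against 21.3% of all 10004 genes lower and 24.3% higher. The groups did not overlap in 17 genes (37.8%), against 32.1% of all genes, and the median log2 difference was -0.35, against -0.01 for all genes. Ramp2 had 13.5 to 21.0 at 40 weeks on the joined scale, against 32.0 to 51.7 at 2 weeks (-1.12 ± 0.17 SE, limma adjusted p = 3.8e-05). Fabp4 (-1.19 ± 0.20 SE, limma adjusted p = 8.9e-05) and Egfl7 (-1.12 ± 0.27 SE, limma adjusted p = 0.00213) were also fully apart. Jag1, a Notch ligand, and Dll4, which had not passed against Sham, fell by 0.73 (SE 0.20) and 0.58 (SE 0.22) on the log2 scale.

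The other genes that fell between 2 and 40 weeks were Rasip1, Gpihbp1, Nos3, Esam, Emcn, Icam2, Tm4sf1, Pecam1, Notch4, Sox18, Ets2 and Tie1, with log2 differences of -0.94 to -0.44. The genes that rose were Cdh5 (0.85 ± 0.31 SE), Calcrl (0.77 ± 0.31 SE), Adgrf5 (0.70 ± 0.18 SE) and Palmd (0.40 ± 0.16 SE). Without MR 2 weeks replicate 1, the library that stood apart, Cdh5 was at 0.45 and Calcrl at 0.51 and neither passed. Cdh5 also lost its call without MR 2 weeks replicate 3 or MR 40 weeks replicate 5 (0.84 and 0.77). Calcrl lost it without MR 2 weeks replicate 3 or MR 40 weeks replicate 2, 4 or 5 (0.61 to 0.79), and Palmd without MR 2 weeks replicate 1 or 2 or MR 40 weeks replicate 1, 2 or 5 (0.29 to 0.41). Without MR 2 weeks replicate 1, Dll4 (-0.42), Ets2 (-0.34), Notch4 (-0.31) and Tie1 (-0.42) lost their calls. They also lost them without MR 2 weeks replicate 3 (Dll4, Ets2 and Notch4) or 4 (Tie1), or without MR 40 weeks replicate 1 (Ets2), 3 (Notch4), 4 (Dll4, Notch4 and Tie1) or 5 (Dll4 and Notch4), at -0.66 to -0.36. Sox18 lost it without MR 2 weeks replicate 4 or MR 40 weeks replicate 2 or 3 (-0.49 to -0.48). Egfl7, Esam, Fabp4, Gpihbp1, Icam2, Ramp2 and Sox18 were the 7 genes that fell at 40 weeks against Sham, against MR at 2 weeks and against MR at 20 weeks, and Adgrf5, Calcrl and Cdh5 the 3 that rose against all of these. These comparisons share the MR libraries at 40 weeks.

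Between the earlier MR times no endothelial gene passed in limma. At 10 against 2 weeks 0 of 45 were called, against 1.38% of all 10004 genes, with 10 (22.2%) at an unadjusted p under 0.05, against 15.2% of all genes. edgeR called 1, Cd93, and DESeq2 called 4: Cd93, Erg, Gpihbp1 and Robo4, the last of which was under the minimum mean in limma. Gpihbp1 had 49.1, 52.5, 64.3, 66.5 and 53.5 at 10 weeks on the joined scale, against 43.0, 25.6, 38.2 and 24.9 at 2 weeks. Its groups did not overlap (1 of the 45 genes, 2.22%, against 5.19% of all genes), at 0.81 ± 0.22 SE with a limma adjusted p of 0.065. Cd93 was at -1.08 ± 0.31 SE, Cd34 at -0.91 ± 0.34 SE and Egfl7 at 0.48 ± 0.27 SE. Without MR 2 weeks replicate 1, 5 genes passed: Cd34, Cd93, Cdh5, Erg and Gpihbp1.

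At 20 against 10 weeks 0 of 45 were called in limma, edgeR and DESeq2, against 0.0100% of all 10004 genes in limma. An unadjusted p under 0.05 was found in 18 genes (40.0%), against 15.2% of all genes, and groups without overlap in 0 of 45, against 3.06%. Of the 45 log2 differences, 38 were below 0, with a median of -0.32, against -0.0036 for all genes. Below 0 were also 11 of 12 macrophage (median -0.55), 11 of 12 fibroblast (-0.24), 8 of 10 pericyte (-0.27) and 5 of 5 lymphocyte markers (-0.34). So were 6 of 8 smooth muscle (-0.09) and 3 of 3 adipocyte markers (-0.48), but 0 of 11 cardiomyocyte markers (0.28). The part of these cells in the endothelial differences was not tested. Egfl7 was at -0.69 ± 0.26 SE and Rasip1 at -0.55 ± 0.19 SE. The highest were Cdh5 at 0.43 ± 0.30 SE and Cd93 at 0.37 ± 0.29 SE.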

How the data were processed

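RNA of rat myocardium was sequenced in 24 libraries. The submitters' processing notes name Partek and build rn6. How reads were aligned, annotated, counted and assigned to strands is not given in the sources used here. Deposited signal values are the authors' linear normalised gene counts, in a table per MR time with the same Sham libraries. After a single factor per library was undone, 97.6% to 98.0% of the values up to 2000 reads were within 0.1 read of a whole read, and these reads served edgeR 4.0.16 and DESeq2 1.42.0 as alternatives. Over the 46 pairs of libraries within groups, chi-square values per gene of 10.4 to 112 showed no repeated library. Genes with a mean of at least 1 were tested two-sided as log2(value + 1) with limma 3.58.1 (R 4.3.3, trend), per table. MR times were compared in a single fit of the 24 libraries after median-ratio rescaling (the joined scale). The test was also run on simulated counts given the same extra spread for every gene. Those counts do not copy the spread of the real libraries, and nothing is concluded from that run. The design had foreseen counts; limma was used because the values are scaled. The genes, roles, other endothelial genes, vessel-type lists and cell marker lists were chosen with earlier results of these data known. Named were all genes that passed, or the 2 highest and 2 lowest of well-expressed genes where fewer than 4 passed, and up to 4 genes of other lists.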

Additional observations from a re-analysis of the deposited data

Results flagged for a closer look

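Values in this part are on the joined scale. Of 180 gene and group combinations of 36 named genes, 13 (7.22%) had a library far from the rest of its group by Dixon's criterion, which chance meets in about 1 of 20. In MR at 2 weeks, replicate 1 was high for Egfl7 (148.6, against 53.5 to 62.0 in the others) and Notch4 (243.6, against 96.8 to 117). In MR at 10 weeks, Fabp4 was high in replicate 4 (693.4) and Icam1 in replicate 5 (15.21). In MR at 20 weeks, Rasip1 was high in replicate 1 (100), Palmd was high in replicate 5 (34.15) and S1pr1 was low in replicate 2 (89.55). In MR at 40 weeks, Calcrl was high in replicate 5 (12.39) and Rasip1 was low in replicate 4 (35.74). In Sham, Calcrl was high in replicate 5 (6.213), Ets2 in replicate 3 (47.33), Jag1 in replicate 3 (26.0) and Heyl in replicate 2 (88.52).

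Between MR at 40 and MR at 20 weeks, 19 genes passed in limma. Without Sham at these times, time after surgery, age and handling cannot be told apart in these differences. The log2 differences of the 7 falls were -1.23 for Gpihbp1, -1.02 for Fabp4, -0.92 for Egfl7, -0.84 for Ramp2, -0.66 for Esam, -0.63 for Sox18 and -0.42 for Icam2. Those of the 12 rises were 1.56 for Cd34, 1.21 for Calcrl, 1.15 for Cdh5, 1.12 for Cd93, 1.04 for Icam1, 0.89 for Arhgap29, 0.66 for Adgrf5, 0.51 for Thbd, 0.49 for Vwf, 0.40 for Palmd, 0.38 for S1pr1 and 0.35 for Tek.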

How the results depend on the processing

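No paired analysis was possible because the labels number the libraries without pairing the groups. The number of endothelial genes called at 40 weeks against Sham was 18 to 25 under other scalings, filters, pseudocounts and tools, beside 25, and 21 to 27 with a library left out. At 10 weeks against Sham DESeq2 called 1 endothelial gene in place of 0. At MR 10 against 2 weeks, library weights called 10, edgeR 1 and DESeq2 4 in place of 0, and leaving out a library gave 0 to 5. At MR 20 against 10 weeks library weights called 9 in place of 0. Against MR at 20 and at 2 weeks, the counts at 40 weeks were 13 to 23 and 14 to 21 with a library left out, beside 19 and 21. Over all genes the counts moved more. At 2 weeks against Sham, library weights called 22, DESeq2 65 and the single fit of 24 libraries 27, in place of 0. At 10 weeks, beside 17, median-ratio rescaling called 5, TMM 7, library weights 27, edgeR 5, DESeq2 85, the single fit 3, and leaving out a library 0 to 29. At 20 weeks, beside 7, library weights called 30, DESeq2 93, the single fit 11, and leaving out a library 2 to 14. At MR 10 against 2 weeks, beside 138, a mean of at least 10 left 32, library weights called 1189, DESeq2 372, a fit of only the groups compared 45, and leaving out a library 51 to 298. At MR 20 against 10 weeks, beside 1, a mean of at least 10 left 0, library weights called 759, DESeq2 27, only the groups compared 3, and leaving out a library 1 to 4. With a mean of at least 10, which tests fewer genes, 2664 were called at 40 weeks against Sham, 2447 against MR at 20 weeks and 2945 against MR at 2 weeks. Of the named log2 differences 1 changed sign. Notch4 at 20 weeks against Sham, which was not called, was at 0.09 and moved to -0.054 without MR 20 weeks replicate 1, with -0.054 to 0.18 over all left-out libraries. The cause of these shifts was not tested. Genes without a read in some library are not in these tables, and low genes such as Plvap and Ramp3 rest on few reads.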
